A study of Rattus norvegicus with 34 samples.

Results

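Microglia and macrophages can answer injury with a type 2 programme, and the retinal card of this study carried *Il10*, *Il13*, and *Retnla*, which are read as its signs. The 3 genes described here were chosen by name from the 44 specific genes of the card. They were measured in the retina of single rats at 9 weeks of age in 4 groups. The SD group held 6 uninjected Sprague Dawley rats, without the transgene. The PKD group held 6 uninjected rats of the strain labelled PKD2(HA-1/703-CMV-247), male and homozygous for a truncated polycystin-2 that is overexpressed under the CMV promoter. These animals lose retinal capillaries while their glia are activated. The PKD + Clodronate group held 5 such transgenic rats whose eyes had received 3 µl of clodronate-loaded liposomes into the vitreous at 4 and again at 8 weeks of age, and the PKD + Controlliposomes group held 6 that had received the liposomes without the drug. The transgene is therefore shared by every group but the SD rats, and the uninjected groups received no vehicle. Clodronate is a bisphosphonate that harms the phagocytes that take it up.

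In the textbook account, IL-13 binds a receptor that it shares with IL-4 and acts through the transcription factor STAT6, and *Retnla* is among the genes that this route switches on in rodent macrophages. *Retnla* encodes a small secreted protein, RELM alpha, used as a marker of alternatively activated macrophages. IL-10 acts through another receptor and STAT3, restrains the production of cytokines such as TNF, and induces *Socs3*, a feedback inhibitor of cytokine signalling.

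The measurement was quantitative PCR after pre-amplification, and its raw value is the quantification cycle (Cq), the cycle at which a well's fluorescence passes a set level, so that 1 cycle earlier stands for about 2-fold more template. Of the 1104 wells of the 23 rats, 57 held no Cq, and 37 of these were among the 46 wells of *Il13* and *Retnla*. *Il10* had a Cq in every rat, between 30.8 and 34.2. To obtain the level of a gene, its Cq was subtracted from the average Cq of 4 reference genes (*18S*, *B2m*, *Mrpl19*, and *Ywhaz*), which gives a log2 scale, and the SD mean was set to 0. The reference genes did not move together. From SD to control liposome-treated rats the mean Cq of *B2m* went from 17.9 to 17.2. That of *Ywhaz* went from 17.5 to 18.1, of *Mrpl19* from 23.1 to 23.6, and of *18S* from 6.72 to 6.81. Their average was 16.3 and 16.4. RNA came from the whole retina, so that fewer cells expressing a gene and less RNA per cell cannot be told apart. The microglia and macrophage markers *Aif1*, *Itgam*, *Trem2*, and *Tyrobp*, and the reactive glia marker *Gfap*, had a Cq in every rat. The card holds no gene that defines photoreceptors.

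Relative to the reference genes, *Il10* was lowest on average in the clodronate-treated PKD rats and highest on average in the uninjected PKD rats, the opposite ends of a range that SD rats filled by themselves. The SD rats ran from −1.26 through 0.025 to 1.31. The PKD rats ran from −0.17 through 0.50 to 0.65, the narrowest range of the 4 groups. The clodronate-treated rats were at −1.16, −0.31, −1.25, 0.40, and −0.69. Of these 5, 4 were below every untreated PKD rat, and the fourth clodronate-treated rat lay within the PKD range. The control liposome-treated rats ran from −1.27 through −0.17 to 1.70, from below the lowest clodronate-treated rat to above every other animal.

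**Figure D1:**
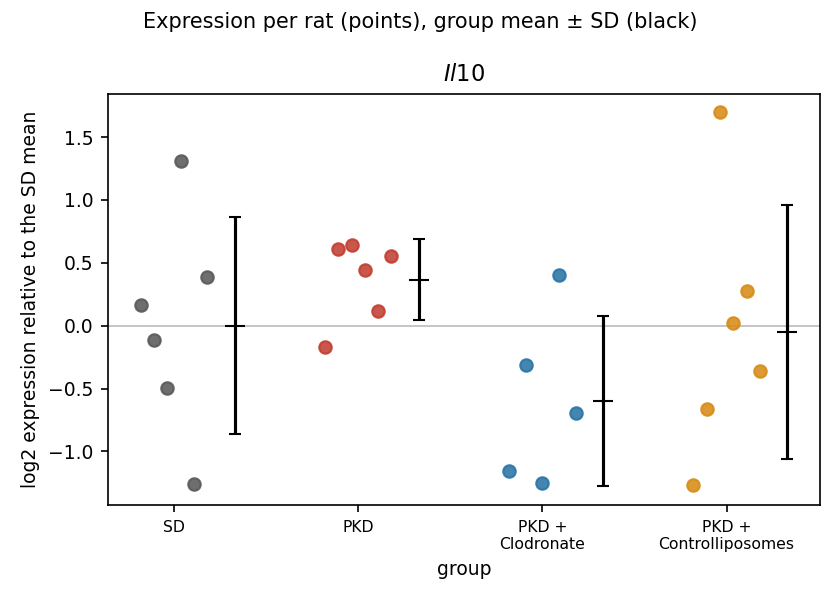
Level of *Il10* in the retina of each rat, as log2 expression with the SD mean at 0, with 1 point per rat and black bars for mean ± SD of 6 SD, 6 PKD, 5 clodronate-treated, and 6 control liposome-treated rats. The groups overlap, the PKD rats lie closest together, and 1 control liposome-treated rat is highest at 1.70.

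The mean level of *Il10* was 0.00 ± 0.864 in the 6 SD and 0.37 ± 0.324 in the 6 PKD rats. It was −0.60 ± 0.675 in the 5 clodronate-treated and −0.049 ± 1.01 in the 6 control liposome-treated animals. Compared to untreated PKD rats, the clodronate-treated rats were at 0.512-fold, with a 95% confidence interval of the log2 difference from −1.86 to −0.075. This was the largest absolute difference among the 41 genes tested in that comparison, and it did not pass the threshold (limma, adjusted p = 0.391). Before adjustment p was 0.0348 in limma and 0.0152 in the two-sided exact permutation test, the latter 0.192 after adjustment over the 41 genes. When each rat was left out in turn, the difference stayed between −1.22 and −0.81 and its limma adjusted p between 0.247 and 0.679. Under the other alternatives, the exact permutation test among them, the adjusted p ranged from 0.0642, when limma was fitted to these 2 groups only (p = 0.00313 before adjustment), to 0.475. Compared to control liposomes, which share the injection but not the drug, *Il10* in clodronate-treated rats differed by −0.55 (−1.44 to 0.34, limma adjusted p = 0.600), and by −0.80 to −0.20 when single rats were left out. Control liposome-treated compared to untreated PKD rats differed by −0.41 (−1.27 to 0.44, limma adjusted p = 0.576), and PKD compared to SD rats by 0.37 (−0.48 to 1.22, limma adjusted p = 0.562). Against SD rats, clodronate-treated rats differed by −0.60 (−1.49 to 0.29, limma adjusted p = 0.243) and control liposome-treated rats by −0.049 (−0.90 to 0.80, limma adjusted p = 0.930). The order of the means, from the highest, was PKD, SD, PKD + Controlliposomes, and PKD + Clodronate. With 5 or 6 rats per group, no difference in means between neighbours in it was detected (exact permutation p = 0.366, 0.931, and 0.348).

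**Figure D2:**
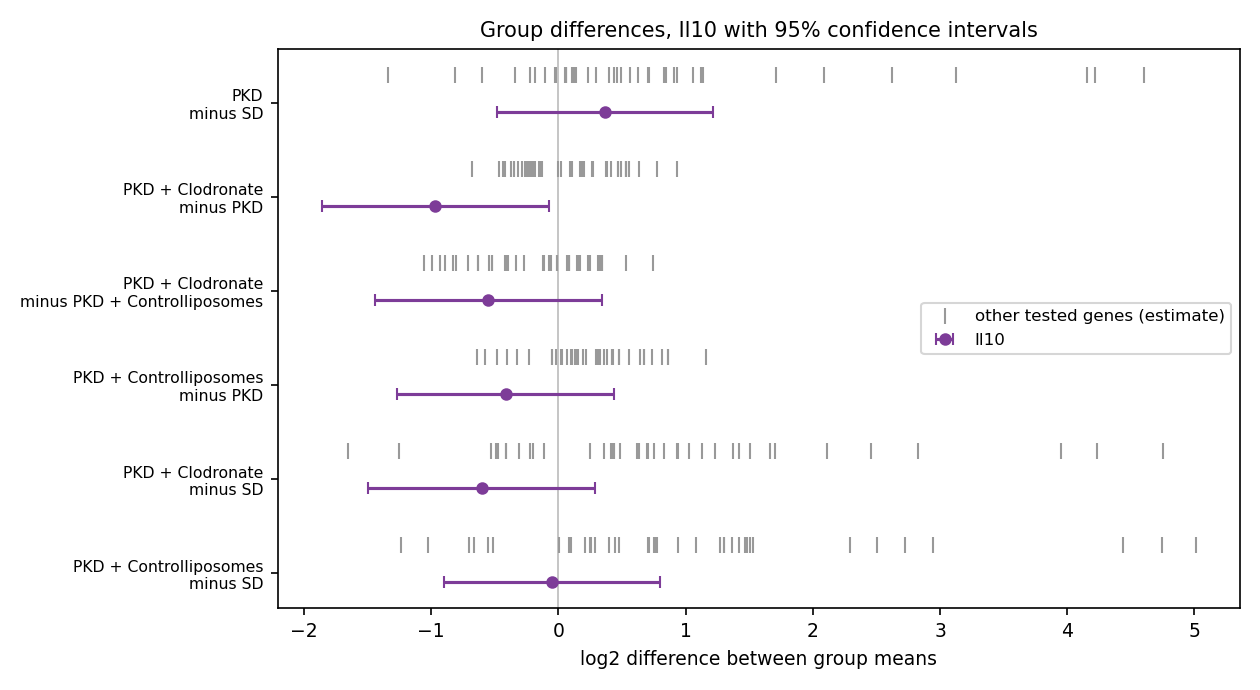
Differences between group means on the log2 scale for 6 comparisons, with *Il10* as a point with its 95% confidence interval and each other tested gene as a grey tick. The interval of *Il10* lies wholly below 0 only for PKD + Clodronate minus PKD, from −1.86 to −0.075, while other genes reach far to the right in the comparisons with SD rats.

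Normalized to the reference genes, *Il10* did not pass the threshold of an adjusted p under 0.05 in any comparison, on a card on which many genes did. Between PKD and SD rats, 36.6% of the 41 genes tested passed, without *Il10*. In clodronate-treated compared to untreated PKD rats 0% of the genes passed in limma, 5 had an unadjusted p under 0.05, and the exact permutation tests with adjustment also called 0. The paper, with its own one-way ANOVA and adjustment, reported *C1s* as higher and *Fgf2* as lower in this comparison. Here *C1s* differed by 0.93 and *Fgf2* by −0.68 (limma adjusted p = 0.391 for each). Between clodronate- and control liposome-treated rats 4.88% passed, and in control liposome-treated compared to untreated PKD rats 2.44%. Against SD rats, 51.2% passed after clodronate and 63.4% after control liposomes, again without *Il10*. For any difference among the 4 groups, 56.1% of the genes passed the limma F test. The F of *Il10* was 1.67 (limma adjusted p = 0.271), which was rank 30 of 41. Of the 41 genes, the median log2 difference was 0.44 between PKD and SD rats, 0.63 between clodronate-treated and SD rats, and 0.75 between control liposome-treated and SD rats. *Il10* was below that median in each of these 3 comparisons, which share the SD rats. With the mean of the specific genes that had a Cq in every rat in place of the reference genes, the median of all genes between PKD and SD rats became −0.38. On that scale *Il10* was at −0.46 in PKD compared to SD rats. It passed as lower than in SD rats both after clodronate (−1.48, limma adjusted p = 0.00388) and after control liposomes (−1.10, limma adjusted p = 0.0188). Relative to the 4 reference genes, 19 genes passed as higher and 2 as lower after clodronate compared to SD rats. After control liposomes 23 passed as higher and 3 as lower. The mean of the specific genes thus includes genes that were higher than in SD rats, and the lower *Il10* is relative to them.

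The cytokine gene *Il13*, the upstream signal of this route, gave a Cq in 6 of the 23 rats. Wells without a Cq carry no level, so the gene was compared by the number of rats with a Cq. In SD rats 1 of 6 had one, at 33.3 cycles, which is 16.7% (exact Clopper-Pearson 95% interval 0.421 to 64.1%). In PKD rats 3 of 6 had one, at 31.3, 29.1, and 29.0 cycles (50%, 11.8 to 88.2%). Of the clodronate-treated rats 1 of 5 had one, at 15.2 cycles (20%, 0.505 to 71.6%), and of the control liposome-treated rats 1 of 6, at 28.8 cycles. PKD rats thus had *Il13* wells with a Cq most often, but all 4 intervals overlapped, and two-sided Fisher's exact test of PKD against SD rats gave p = 0.545.

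The well at 15.2 cycles, in clodronate-treated rat 2, stood 13.6 cycles before the next *Il13* well. Within that rat it came before *B2m* at 16.5 and *Ywhaz* at 17.4 cycles, and after *18S* at 7.84 cycles. On the same card *Il10* was at 32.7 cycles, and the 41 other specific genes differed from the remaining clodronate-treated rats by a median of 0.28 on the log2 scale, from −1.33 to 1.32. The Cq range of *Il13* over its 6 wells was 18.1 cycles, against 10.3 for *Serpina3n*, the next largest on the card. Each gene had 1 well per rat, so the value has no technical repeat, and its cause was not tested. Without this rat, none of the clodronate-treated animals had an *Il13* Cq.

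**Figure D3:**
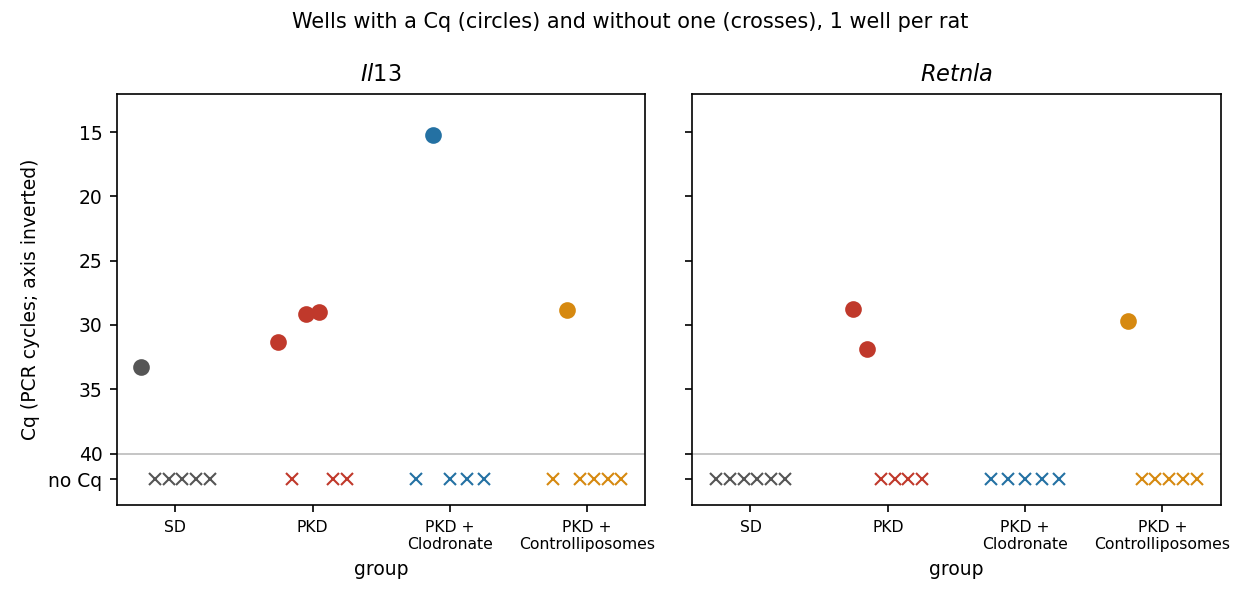
Cq in PCR cycles of every *Il13* and *Retnla* well that gave one, by group, on an inverted axis, with circles for wells with a Cq and crosses for rats without one. *Il13* gave a Cq in 6 rats and *Retnla* in 3 of 23, and the *Il13* well at 15.2 cycles stands apart from the others, which lie between 28.8 and 33.3 cycles.

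*Retnla*, a target of the IL-13 route, gave a Cq in only 3 rats. It had none in the 6 SD rats, which allows a share of up to 45.9% by the exact interval, and none in the 5 clodronate-treated rats, which allows up to 52.2%. In PKD rats 2 of 6 had a Cq, at 28.8 and 31.9 cycles (33.3%, 4.33 to 77.7%), and in control liposome-treated rats 1 of 6, at 29.7 cycles. The smallest p of any Fisher's exact test for *Il13* or *Retnla* was 0.455, and adjusted over the 24 tests of the 4 genes with empty wells it was 1.0. The smallest p that groups of this size allow is 0.00216, which in 1 comparison alone is 0.0519 after adjustment over the 24 tests, so the adjusted test could not have called a single comparison even with complete separation. *Il13* and *Retnla* both gave a Cq in a single animal, PKD rat 1. At least 1 of them did in 8 rats, of which 4 were PKD rats, and neither did in the remaining 15. The wells at 28.8 to 29.7 cycles came before every *Il10* well, the earliest of which was at 30.8, and *Il10* had a Cq in every rat. Each value is a single well, and why the other wells of these genes stayed empty was not tested.

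*Chi3l3*, which encodes a chitinase-like protein of alternatively activated rodent macrophages, was the other gene of this programme with mostly empty wells. It gave a Cq in 4 of 6 PKD rats, at 34.97, 28.1, 27.5, and 28.4 cycles, and in no rat of the other groups (PKD against SD rats, Fisher's exact test p = 0.0606, adjusted p = 0.485). PKD rat 1 was the only animal with a Cq for *Il13*, *Retnla*, and *Chi3l3*. With empty wells placed at cycle 40, the last of the run, the log2 difference between PKD and SD rats became 6.99 for *Chi3l3*, 4.14 for *Il13*, and 3.39 for *Retnla*. For *Chi3l3* it was −6.84 for clodronate-treated and −6.86 for control liposome-treated compared to untreated PKD rats. Groups without any *Chi3l3* or *Retnla* Cq then held a single filled-in value, which sets both the size of those differences and their spread. *Il13* had a Cq in every group, but 5 of 6 SD and 3 of 6 PKD values were filled in. No p is therefore given for the differences of these genes.

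*Il10* was then set against the cytokine gene that its product restrains, as the Cq of *Tnf* minus that of *Il10* in each rat, a measure that needs no reference gene. Its absolute size depends on both assays, so differences between groups were read. A higher value stands for more *Il10* relative to *Tnf*. The SD rats ran from −0.55 through a median of 1.38 to 2.31 and the PKD rats from 0.61 through 1.22 to 1.95. The clodronate-treated rats ran from −0.23 through 0.30 to 1.81 and the control liposome-treated rats from −0.59 through 0.53 to 2.88. Each group overlapped with every other. The means were 0.97 ± 1.12 for the SD group and 1.23 ± 0.560 for the PKD group, with 0.68 ± 1.01 after clodronate and 0.71 ± 1.27 after control liposomes. The difference between clodronate-treated and untreated PKD rats was −0.55 (exact permutation p = 0.275, adjusted p = 0.720), or −0.83 to −0.32 when single rats were left out, and between PKD and SD rats 0.26 (exact permutation p = 0.613, adjusted p = 0.849). None of the 6 comparisons passed, either with p adjusted over the 12 ratio tests planned, of which these are 6, or over these 6 alone (lowest adjusted p = 0.849). The sizes depended on the counterpart. With *Il1b* in place of *Tnf*, *Il10* differed by −1.24 between clodronate-treated and untreated PKD rats (exact permutation p = 0.00433). Its adjusted p was 0.0519 over the 12 tests and 0.0260 over the 6 of *Il10*, so the call depended on the tests counted. With *Il6* the difference was −0.81 (exact permutation p = 0.0779, adjusted p = 0.187).

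**Figure D4:**
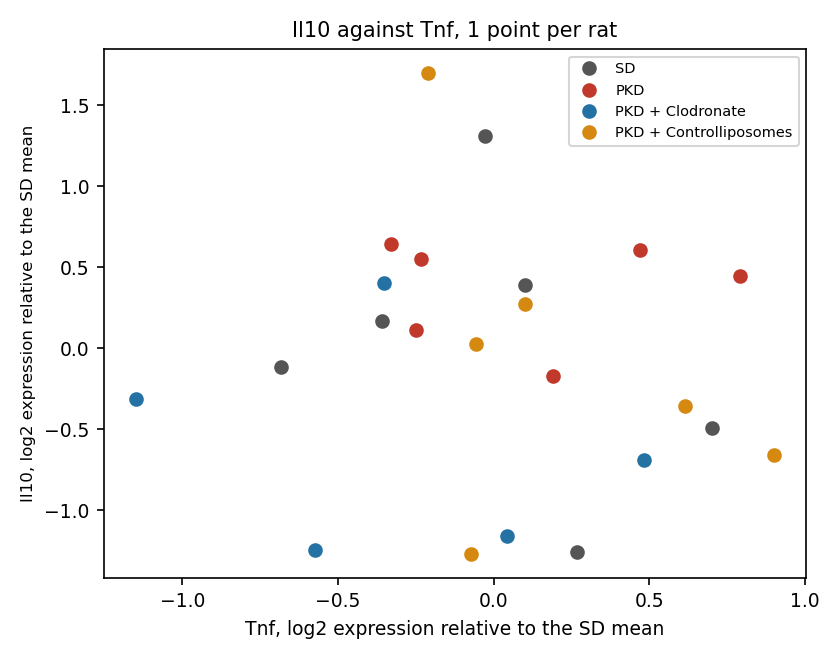
Level of *Il10* against that of *Tnf*, both axes as log2 expression with the SD mean at 0, with 1 point per rat coloured by group. The points show no common order (Pearson r = −0.10 over 23 rats), and rats of each group lie on both sides of the *Tnf* value of SD rats.

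The pro-inflammatory counterparts on the card are *Nos2*, which encodes the inducible nitric oxide synthase, and the cytokine genes *Tnf*, *Il1b*, and *Il6*. Of these 4, 3 passed in limma after control liposomes compared to SD rats, where 63.4% of all genes passed. After clodronate compared to SD rats 1 passed, where 51.2% of all genes did, and between PKD and SD rats 0 passed, where 36.6% did. In the other 3 comparisons 0 of the 4 passed. *Il6* was 1.47 higher after control liposomes than in SD rats (limma adjusted p = 0.00165, exact permutation adjusted p = 0.0148), and it passed in limma whichever rat was left out. In the same comparison *Nos2* differed by −1.24 (limma adjusted p = 0.0342) and *Il1b* by 0.75 (limma adjusted p = 0.0283). The exact permutation tests did not call either (adjusted p = 0.0695 for *Nos2* and 0.0919 for *Il1b*), and leaving out single rats raised the limma adjusted p to as much as 0.0928 for both. *Il1b* was 0.83 higher after clodronate than in SD rats (limma adjusted p = 0.0245, exact permutation adjusted p = 0.0444), with a limma adjusted p of up to 0.0718 when single rats were left out.

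Of the other genes of alternative activation on the card, 5 could be tested, namely *Mrc1* (the mannose receptor), *Fcer2* (the low-affinity IgE receptor), *Tgfb1*, *Stab1* (a scavenger receptor), and *Igf1*. In limma 0 of the 5 passed between PKD and SD rats, where 36.6% of all genes did, and 0 after control liposomes compared to SD rats, where 63.4% did. After clodronate compared to SD rats 1 passed, against 51.2% of all genes, and in the other 3 comparisons 0. The 1 was *Fcer2*, at −1.66 (limma adjusted p = 0.0366), which the exact permutation test did not call (adjusted p = 0.0813). The SD level of *Fcer2* rested on 5 rats with a Cq, of which SD rat 6 was at 3.43 and the others between −1.78 and −0.0027 relative to the mean of these 5. Without SD rat 6 the difference was −0.80 (limma adjusted p = 0.170). The median log2 difference of the 5 was −0.020 between PKD and SD rats, where that of all genes was 0.44, and 0.19 between clodronate-treated and untreated PKD rats, where that of all genes was 0.020. *Socs3*, which IL-10 and other cytokines that signal through STAT3 can induce, was 4.22 higher in PKD than in SD rats (limma adjusted p = 1.38e-10), a comparison in which *Il10* differed by 0.37. The reactive glia marker *Gfap* was 2.62 higher in the same comparison (limma adjusted p = 4.61e-08). It was 2.83 and 2.95 higher than in SD rats after clodronate and control liposomes (limma adjusted p = 5.42e-08 and 6.15e-09). Its part in the *Socs3* values was not tested. Between clodronate-treated and untreated PKD rats *Socs3* differed by 0.53 (limma adjusted p = 0.472), while *Il10* differed by −0.97.

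Microglia and macrophage markers differed between the groups beside these values. The mean of *Aif1*, *Itgam*, *Trem2*, and *Tyrobp*, of which *Tyrobp* had the earliest median Cq at 23.1, was 0.36 ± 0.181 above the SD mean in PKD rats, 0.22 ± 0.305 after clodronate, and 0.99 ± 0.224 after control liposomes. The SD rats themselves ran from −0.51 to 0.58. The 4 markers did not move as one. Between PKD and SD rats *Itgam* differed by 0.83 and *Tyrobp* by 0.85, both passing in limma, *Aif1* by 0.12, and *Trem2* by −0.34. After clodronate compared to SD rats *Itgam* differed by 0.70 and *Tyrobp* by 0.94, both passing in limma, *Aif1* by −0.22, and *Trem2* by −0.53. Of the 4, 2 thus passed between PKD and SD rats (36.6% of all genes) and 2 after clodronate compared to SD rats (51.2%). After control liposomes compared to SD rats 3 passed (63.4%). In PKD rats the mean of the 4 ran from 0.096 to 0.63 and after control liposomes from 0.67 to 1.27, so these groups did not overlap in it. Between them 0 of the 4 markers passed in limma (2.44% of all genes). The exact permutation test, in which 4 of the 41 genes passed, called *Itgam*, higher by 0.67 without overlap (adjusted p = 0.0296, limma adjusted p = 0.0844), and *Aif1*, higher by 0.65 (adjusted p = 0.0444, limma adjusted p = 0.153). Between clodronate- and control liposome-treated rats 2 passed (4.88% of all genes), *Aif1* at −0.99 and *Itgam* at −0.81, with limma adjusted p of up to 0.0647 and 0.101 when single rats were left out. *Il10* was at −0.55 in the same comparison. The card also holds *Cd74*, which the study stained as a sign of activated microglia, and the macrophage marker *Lgals3*. Neither is among the 4, and in the same comparison they were higher, by 0.17 and 0.34, without passing in limma. Between clodronate-treated and untreated PKD rats they differed by 0.54 and 0.78 (limma adjusted p = 0.492 and 0.391), and the 4 markers by −0.35 to 0.091. Expressed relative to the 4 markers in place of the reference genes, *Il10* differed by 0.21 between clodronate- and control liposome-treated rats. On that scale it differed by −1.03 between control liposome-treated and SD rats (limma adjusted p = 0.0242). That reference leaves out *Cd74* and *Lgals3*, and a reference with them was not tested. How much the number of marker-bearing cells contributes to the values of *Il10*, *Il13*, and *Retnla* was not tested.

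*Il10* varied more among rats of a group than most genes. The pooled within-group SD was 0.768 for *Il10*, the sixth highest of the 41 genes, against a median of 0.535 and a range from 0.291 to 1.56. The median Cq of *Il10* was 32.4, the third latest. Late Cq values rest on fewer template copies, and the share of the spread of *Il10* that comes from this was not tested. *Tnf* had the latest median Cq, 33.6, with an SD of 0.499, and *Nos2*, at 27.9 cycles, an SD of 0.944.

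**Figure D5:**
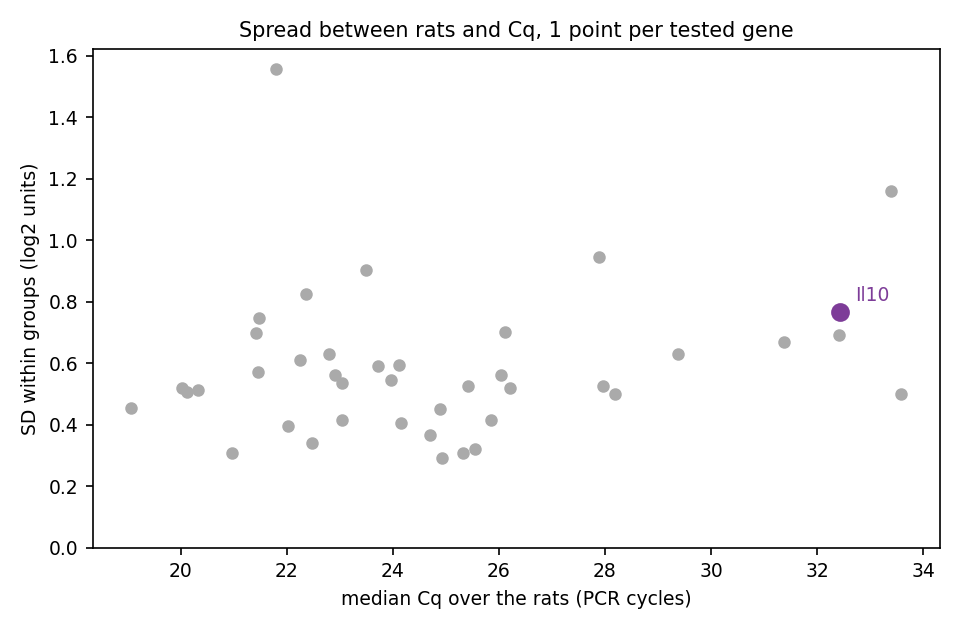
Pooled within-group SD of log2 expression against median Cq in cycles for the 41 tested genes, with 1 point per gene. *Il10* at 32.4 cycles and 0.768 lies among the late genes and above the median SD of 0.535.

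The genes most like *Il10* over the 23 rats were *Igf1* (Pearson r = 0.39), *Tgfb2* (0.36), and *Mrc1* (0.35), against a median r of 0.054 over the 39 genes compared. For deviations from the group means, r was 0.38 for *Igf1* (rank 10), 0.58 for *Tgfb2* (rank 1), and 0.46 for *Mrc1* (rank 6), against a median of 0.21. *Tgfb2* encodes a growth factor of the TGF beta family. With *Tnf* the r of *Il10* was −0.10, and 0.23 when the mean of the specific genes replaced the reference genes. The values of a rat share a card and a normalizer, so these correlations are descriptions.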

How the data were processed

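The deposited unit is the Cq, in cycles, which the authors read from TaqMan microfluidic cards, 48 wells per rat, after 14 cycles of pre-amplification and at most 40 of PCR, before normalization. Deposited fold changes of the authors' own comparisons were not used. Rats were assigned to groups by the sample list of the study, which names each column, and 11 columns without a group there were not used, so PBS-injected PKD and clodronate-treated SD rats were not analysed here. All 48 wells took their gene names from the Cq listed by symbol in the study, matched within 0.001 cycles.

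Reference genes and a one-way design follow the methods of the study. The 41 genes with at least 3 Cq values in each group were fitted with limma 3.58.1 (R 4.3.3, statmod 1.5.0) in 1 model of the 4 groups, with Benjamini-Hochberg adjustment over the 41 genes and a threshold of 0.05. Exact permutation tests, Fisher's exact tests, and figures were made in Python 3.11.15 (scipy 1.17.1, statsmodels 0.14.6, matplotlib 3.10.9). The fit was tested on simulated data. Each column is a single rat, numbered within its group in the order of the columns. How many copies a Cq stands for is unknown, and precision rests on 5 or 6 rats per group, and exact intervals of shares cover counting error only.

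The genes and all lists were chosen with earlier results of these data known. A further gene of the same set is not reported here, and its 6 ratio tests stayed in the adjustment over 12. Named genes are *Il10*, *Il13*, *Retnla*, the reference genes, the counterparts *Nos2*, *Tnf*, *Il1b*, and *Il6*, the other alternative activation genes, *Socs3*, the microglia and macrophage markers, *Gfap*, and the 3 genes most like *Il10* by Pearson r. *Serpina3n*, *Cd74*, *Lgals3*, *C1s*, and *Fgf2* were named after their values were seen. Alternatives were other reference genes, empty wells at cycle 40, Cq limits of 35 and 30, a fit of the compared groups alone, permutation tests, other counterparts, and leaving out each rat.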

Additional observations from a re-analysis of the deposited data

How the results depend on the processing

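The choice of reference changed calls. With the mean of the specific genes that had a Cq in every rat as reference, the median of all genes moved from 0.44 to −0.38 between PKD and SD rats, and *Il10* turned to −0.46 there. Compared to SD rats, *Il10* then passed the threshold in clodronate-treated (−1.48) and control liposome-treated rats (−1.10), with an F of 5.34. That reference includes genes that were higher than in SD rats, and these values are relative to them. Relative to the 4 microglia markers, without *Cd74* and *Lgals3*, the median of all genes moved from −0.069 to 0.76 between the liposome groups. *Il10* was then 0.21 between clodronate and control liposomes, it passed at −1.03 between control liposomes and SD, and its F was 4.10. Without *B2m*, *Il10* between control liposome-treated and SD rats was 0.21.

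Genes passing in control liposome-treated compared to untreated PKD rats numbered 1. They numbered 3 without *18S*, 0 without *B2m*, *Mrpl19*, or *Ywhaz*, and 5 with either other reference or a fit of both groups alone. By permutation 4 passed. With empty wells at cycle 40, which brought 44 genes into the fit, 3 did, *Chi3l3* among them. Between the liposome groups the 2 became 0 without *B2m*, 1 without *Mrpl19*, and 23 against the microglia markers. The 15 between PKD and SD rats became 23 against the specific genes. The 0 between clodronate-treated and untreated PKD rats became 2 against the specific genes and 1 against the microglia markers. With empty wells at cycle 40 it became 1, namely *Chi3l3*. All *Chi3l3* values of both liposome-treated groups were then filled in, so no conclusion is drawn from its calls.

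For *Il10* against another counterpart than *Tnf*, PKD minus SD was −0.20 with *Il1b* and −0.54 with *Il6*, and clodronate minus control liposomes 0.16 with *Il6*. With *Il1b* and *Il6*, clodronate minus PKD was −1.24 and −0.81, clodronate minus SD −1.44 and −1.36, and control liposomes minus SD −0.80 and −1.51, against −0.55, −0.29, and −0.26 with *Tnf*, and none passed after adjustment over the 12 ratio tests. Over the 6 of *Il10* alone, an alternative chosen after seeing the data, clodronate minus PKD passed with *Il1b* (−1.24, exact permutation adjusted p = 0.0260), and none other did with *Tnf*, *Il1b*, or *Il6*.

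Leaving out single rats gave −0.40 to 0.21 for *Il10* between control liposomes and SD, 0.11 to 0.63 between PKD and SD, −0.85 to −0.34 between clodronate and SD, −0.76 to −0.17 between control liposomes and PKD, and −0.80 to −0.20 between the liposome groups. Genes passing ranged from 0 to 1 between control liposomes and PKD and from 0 to 3 between the liposome groups. The share of rats with an *Il13* Cq after clodronate minus that in SD or control liposome-treated rats ranged from −16.7 to 20 percentage points, the lowest without clodronate-treated rat 2. *Il10* against *Tnf* ranged from −0.046 to 0.53 (PKD minus SD), −0.70 to 0.0053 (control liposomes minus SD), −0.31 to 0.41 (clodronate minus control liposomes), −0.83 to −0.32 (clodronate minus PKD), −0.60 to −0.024 (clodronate minus SD), and −0.96 to −0.26 (control liposomes minus PKD). The cause of these changes was not tested. Leaving out rats reversed 13 of 161 *Il10* values, and other alternatives reversed 9 of 105 and made 6 pass. Some settings leave differences unchanged, and F cannot reverse. Fisher tests could not pass singly after adjustment and are not counted. Of the counts of genes passing, 75 of 92 and 59 of 75 stayed within 1.5 times. For *Fcer2*, *Nos2*, *Il6*, *Il1b*, *Aif1*, and *Itgam*, leaving out rats and the permutation tests were chosen after seeing the data. No paired analysis was possible because columns carry no replicate number.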
